A study of Homo sapiens with 6 samples.

Results

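The hexosamine pathway and the O-GlcNAc cycle were followed through 10 genes: GFPT1, GFPT2, GNPNAT1, PGM3, UAP1, OGT, OGA, NAGK, AMDHD2 and GNPDA1. A gene was taken from the row that holds an annotated transcript and its symbol among the row's names, and all 10 were found among the 60835 loci of the table. ARPE-19, an established human retinal pigment epithelium cell line labelled as wild type, had been kept for 72 h in high glucose (3 libraries, numbered 1 to 3) or in normal glucose (3 libraries, numbered 1 to 3). No glucose concentration is given. Nothing in the labels ties a library to a culture of its own, so the p-values cover only the spread among libraries, part or all of which could be technical. RNA levels were measured by paired-end sequencing, and the question put to each gene was whether its level differed between high and normal glucose. Gene coordinates are those of the table, whose build is not stated. All 10 overlap the gene's place in GRCh38.p14, but their ends do not always match it.

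The hexosamine pathway branches off glycolysis at fructose 6-phosphate and ends in UDP-GlcNAc, the sugar donor for N-glycans, hyaluronan and the O-GlcNAc tag of nuclear and cytosolic proteins. GFPT1 and its paralog GFPT2 catalyse the first and rate-limiting step, with glutamine as the amino donor, and GNPNAT1, PGM3 and UAP1 carry out the steps that follow. OGT is the enzyme that places O-GlcNAc on proteins and OGA the one that removes it. NAGK returns free GlcNAc to the pathway, while AMDHD2 and GNPDA1 work in the opposite direction, towards fructose 6-phosphate. The pathway is widely studied in diabetes because its flux depends on glucose and glutamine supply.

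The libraries held 81616741 to 87748820 counts. On the first 2 principal components, which held 49.7% and 18% of the variance, the groups separated on the first, and normal glucose 3 stood apart from the other 5 libraries on the second. Results below are therefore given with and without that library where its omission matters. Of 12 markers of retinal pigment epithelium, 10 were tested, and their summed level was 2342 to 2481 CPM (counts scaled to TMM-normalised library size) in high glucose and 795 to 1272 CPM in normal glucose. KRT8 and KRT18, keratins of simple epithelia, carried most of that sum and were called higher, BEST1, a chloride channel of this epithelium, was called lower, and the median log2 change of the 10 tested markers was -0.28. RPE65, the defining enzyme of the visual cycle, was at or near 0, with at most 0.0456 CPM in any library, and TYR, the pigment enzyme, was at 0 in 5 of 6 libraries. The 8 fibroblast markers summed to 224 to 226 CPM in high glucose and 161 to 281 CPM in normal glucose. PDGFRB, called higher, and PDGFRA, in a locus shared with FIP1L1, carried most of the high glucose sum. COL1A1 was called lower, COL1A2 and COL3A1 were not called, and DCN, LUM and THY1 were at most 4.25 CPM in any library. In normal glucose 1, COL1A1, COL1A2 and COL3A1 had 86.35, 28.7 and 13.7 CPM. In any other library they had at most 39.2, 2.49 and 5.71 CPM. DCN, LUM and THY1 were also highest in normal glucose 1, and PDGFRA and PDGFRB were not. The 3 leukocyte markers summed to 427 to 543 CPM in high glucose and 342 to 474 CPM in normal glucose, a sum that CD68 carries in a locus of 8 names, while PTPRC was at most 0.0932 CPM and CD3E at 0. The 3 endothelial markers summed to at most 2.95 CPM and the 3 photoreceptor markers to at most 0.128 CPM. The part of these markers in the results below was not tested.

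Promoters of 4 genes are shown because 3 of them belong to the genes whose RNA differed between the groups and the fourth, AMDHD2, holds an unusual run of motifs. They are the 250 bases before and 50 bases after the RefSeq start in GRCh38.p14, written 5′ to 3′ on the gene's strand, and all 10 genes had at least 1 such window. Capitals mark matches to an E-box (CACGTG) or to an antioxidant response element (TGACNNNGC). The windows are chrX:71532854-71533153 (plus strand) for OGT, chr10:101818395-101818694 (minus strand) for OGA, chr5:142012978-142013277 (minus strand) for GNPDA1 and chr16:2520121-2520420 (plus strand) for AMDHD2.
OGT: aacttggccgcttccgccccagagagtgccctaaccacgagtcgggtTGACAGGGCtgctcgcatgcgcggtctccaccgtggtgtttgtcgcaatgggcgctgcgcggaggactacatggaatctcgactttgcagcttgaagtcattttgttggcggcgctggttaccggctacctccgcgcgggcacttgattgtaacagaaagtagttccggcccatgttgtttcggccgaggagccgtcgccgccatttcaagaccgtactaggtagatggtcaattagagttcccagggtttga
OGA: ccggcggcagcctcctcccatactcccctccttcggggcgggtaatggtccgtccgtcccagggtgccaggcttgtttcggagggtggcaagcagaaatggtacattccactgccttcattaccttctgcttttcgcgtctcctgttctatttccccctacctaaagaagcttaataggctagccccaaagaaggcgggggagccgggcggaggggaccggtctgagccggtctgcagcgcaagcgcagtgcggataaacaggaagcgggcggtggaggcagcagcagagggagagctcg
GNPDA1: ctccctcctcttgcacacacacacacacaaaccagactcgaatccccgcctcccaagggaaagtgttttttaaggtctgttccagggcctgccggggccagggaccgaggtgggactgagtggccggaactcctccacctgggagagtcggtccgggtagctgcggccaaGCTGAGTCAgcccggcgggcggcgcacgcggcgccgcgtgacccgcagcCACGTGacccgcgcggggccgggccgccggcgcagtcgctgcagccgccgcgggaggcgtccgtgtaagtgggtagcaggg
AMDHD2: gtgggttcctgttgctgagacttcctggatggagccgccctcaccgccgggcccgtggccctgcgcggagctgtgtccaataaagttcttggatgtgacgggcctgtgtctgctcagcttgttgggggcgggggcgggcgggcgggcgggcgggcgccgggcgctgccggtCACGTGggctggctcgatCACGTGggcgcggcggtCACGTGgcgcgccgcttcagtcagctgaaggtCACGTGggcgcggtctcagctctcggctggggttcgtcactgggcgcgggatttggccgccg
OGT holds 1 antioxidant response element match, 203 bases before the start. GNPDA1 holds 1 such match on the opposite strand and 1 E-box, which begins 31 bases before the start. AMDHD2 holds 4 E-boxes, which begin 79, 61, 44 and 12 bases before the start, and OGA holds neither motif. On both strands, an E-box was present in 7.23% of 34943 human promoter windows, an antioxidant response element in 13.3%, and 4 or more E-boxes in 5 windows. The unfolded protein response element (TGACGTGG), the cAMP response element (TGACGTCA) and the C/EBP-ATF composite (TGATGNAAN) were in none of the 14 windows of the 10 genes, against 0.730%, 1.84% and 3.62% of all windows. E-boxes read the same on both strands, and none of the matches printed here overlap each other. These matches describe letters in a window and say nothing of binding.

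In high glucose, OGA rose, and OGT and GNPDA1 fell, each by less than 2-fold. The remaining 7 genes did not pass the test, edgeR's quasi-likelihood test with Benjamini-Hochberg adjustment over 25025 loci and a threshold of 0.05. All 10 genes passed the filter on low counts. The share of calls among the genes, 3 of 10, stands beside 19.6% of all tested loci and 25.5% of the tested loci with a protein-coding transcript. By direction, 1 of 10 rose, beside 9.75% and 13.1% of those loci, and 2 of 10 fell, beside 9.86% and 12.4%. The groups did not overlap for 6 of the 10 genes, against 42.3% of all tested loci and 49.5% of those with a protein-coding transcript, so neither count stands far from its background. Of these 6, 1 was higher (21.8% and 25.9% of loci) and 5 lower in high glucose (20.5% and 23.6%). The 5 include AMDHD2, in a locus of 5 names, and GFPT2, with 20 counts in high glucose 2 beside 23 in normal glucose 3. Both also enter the median and the count of negative estimates that follow. The median log2 change of the 10 genes, high minus normal glucose, was -0.35, beside -0.0042 over all tested loci, and 8 of 10 estimates were negative. Without normal glucose 3, 1 of 10 was called higher and 4 lower, beside 14.8% and 13.9% of all loci tested without that library. Either way, 28.7% of loci were called at that setting, so calls were more frequent there among all loci as well. In bulk RNA, fewer cells of a type and less RNA per cell cannot be told apart.

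**Figure D1:**
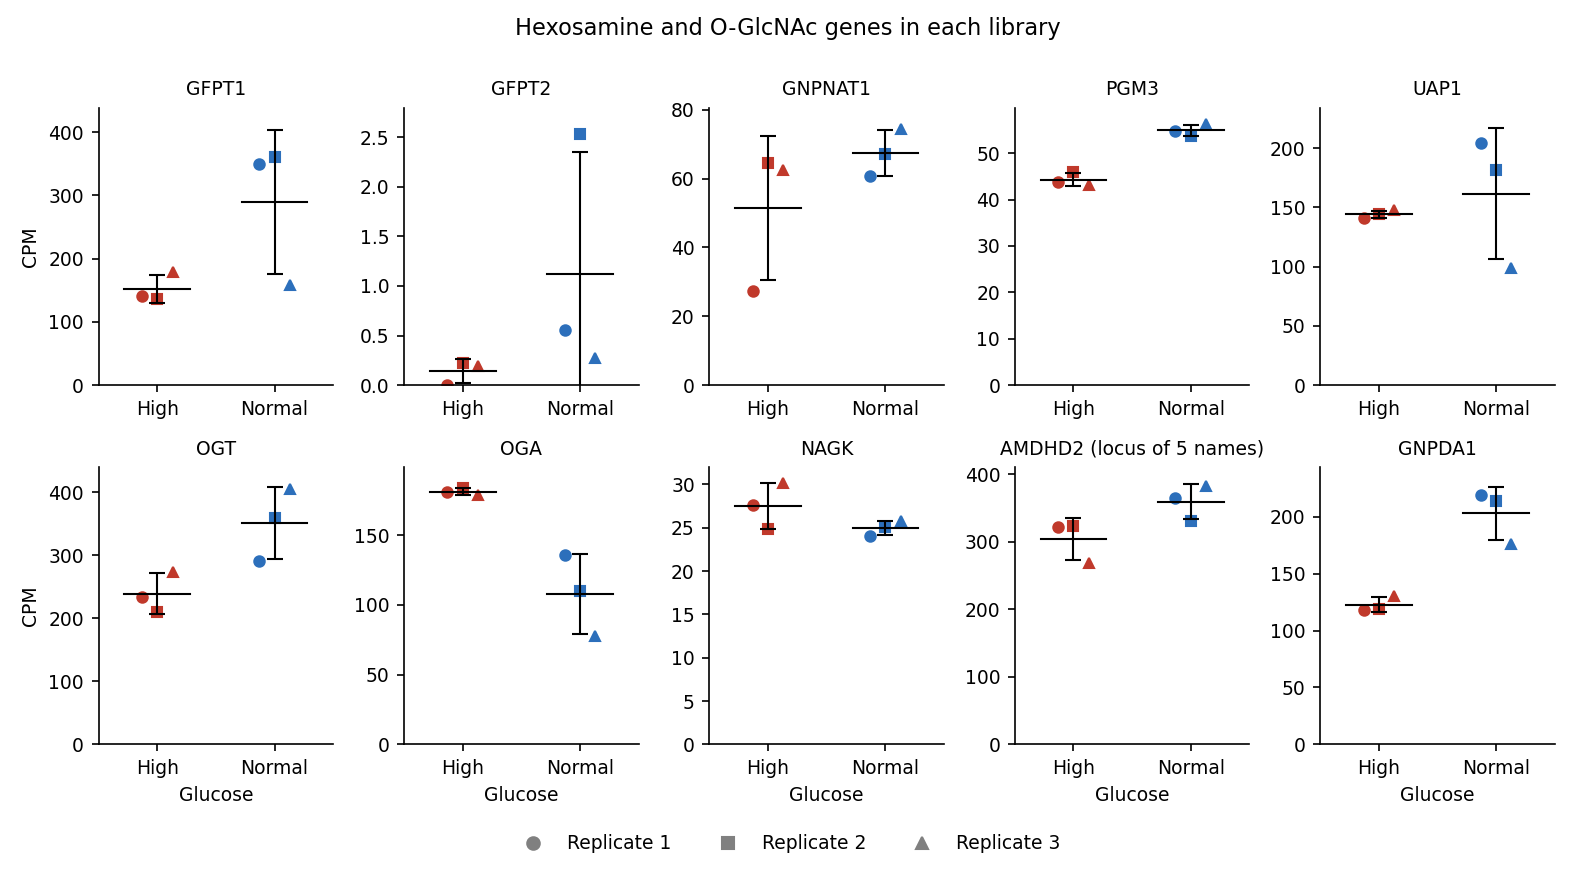
Level of each gene in CPM (y axis, from 0) in the 3 high glucose (red, left) and 3 normal glucose (blue, right) libraries; marker shapes give the replicate number, bars the mean and SD, cut off at 0 for GFPT2. OGA sits higher and OGT and GNPDA1 lower in every high glucose library, while normal glucose 3 falls among the high glucose values for GFPT1 and below them for UAP1.

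OGT and OGA, the pair that writes and erases the tag, moved in opposite directions. OGT (chrX:71533104-71575892, plus strand) had 234, 211 and 274 CPM in high glucose 1, 2 and 3, against 291, 359 and 405 CPM in normal glucose 1, 2 and 3. The groups did not overlap, although the highest high glucose value and the lowest normal glucose value lay close together. OGT averaged 239.5 ± 32.2 CPM in high glucose and 352 ± 57.4 CPM in normal glucose (SD, n = 3 each), a log2 change of -0.56 (SE 0.158, 95% interval -0.93 to -0.18, edgeR adjusted p = 0.0492). Its call was lost when high glucose 1, 2 or 3 was left out (edgeR adjusted p of 0.152, 0.1725 and 0.0816). It was also lost without normal glucose 2 or 3 (edgeR adjusted p of 0.117 and 0.0654).

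OGA (chr10:101784443-101818465, minus strand) had 181, 184 and 179 CPM in high glucose 1, 2 and 3, against 136, 110.0 and 78.0 CPM in normal glucose 1, 2 and 3. The high glucose libraries were nearly equal, and the normal glucose libraries spread widely below them. OGA averaged 181 ± 2.65 CPM in high glucose and 108 ± 28.9 CPM in normal glucose (SD, n = 3 each), a log2 change of 0.75 (SE 0.193, 95% interval 0.30 to 1.20, edgeR adjusted p = 0.0365). The estimate was 0.56 without normal glucose 3 and 0.95 without normal glucose 1. OGA lost its call when high glucose 1, 2 or 3 was left out (edgeR adjusted p of 0.103, 0.112 and 0.102), and when normal glucose 2 was (0.0914).

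Normal glucose 3 was both the library with the most OGT and the one with the least OGA. The log2 ratio of OGT to OGA counts, which does not depend on library scaling, was 0.37, 0.19 and 0.62 in high glucose 1, 2 and 3 and 1.10, 1.71 and 2.38 in normal glucose 1, 2 and 3. Every high glucose library lay below every normal glucose library on this ratio. The mean ratio was 0.39 ± 0.212 in high glucose and 1.73 ± 0.638 in normal glucose (SD, n = 3 each), a difference of -1.34 (2-sided exact permutation test, p = 0.1, the smallest that 3 against 3 libraries allow). The difference was -1.01 without normal glucose 3, and -1.65 to -1.24 without each other library. Per length, OGT stood at 20.2 ± 2.67 FPKM and OGA at 12.1 ± 0.197 FPKM in high glucose (SD, n = 3 each). In normal glucose they stood at 28.8 ± 4.61 and 6.98 ± 1.89 FPKM (SD, n = 3 each). FPKM are fragment counts scaled to length and depth, as deposited. OGT was the more abundant of the pair in all 6 libraries on that scale.

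**Figure D2:**
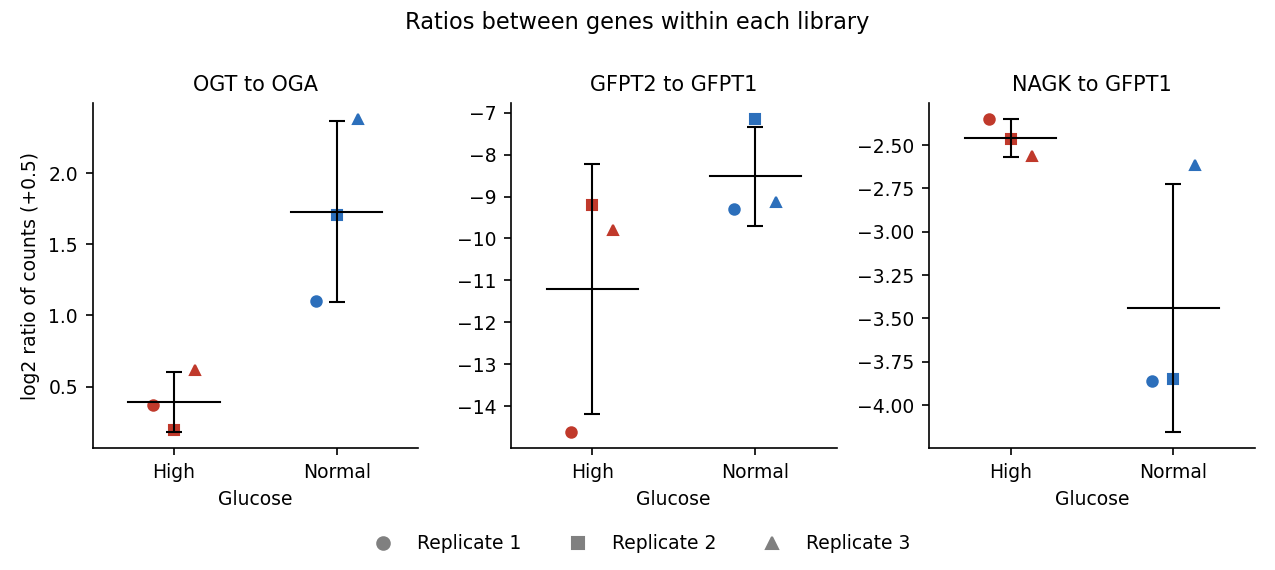
Log2 ratio of counts (plus 0.5) between 2 genes of the same library (y axis) in high glucose (red, left) and normal glucose (blue, right) libraries, with mean and SD as bars and the replicate number as marker shape. The OGT to OGA ratio is 0.19 to 0.62 in high glucose and 1.10 to 2.38 in normal glucose, while the GFPT2 to GFPT1 ratio overlaps between the groups.

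GFPT1, which sets the entry into the pathway (chr2:69319780-69387248, minus strand), had 141, 137 and 178 CPM in high glucose 1, 2 and 3, against 350, 361 and 158 CPM in normal glucose 1, 2 and 3. Normal glucose 1 and 2 were about level with each other and well above all other libraries, and normal glucose 3 lay within the high glucose range. GFPT1 averaged 152 ± 22.7 CPM in high glucose and 289.5 ± 114 CPM in normal glucose (SD, n = 3 each), a log2 change of -0.93 (SE 0.306, 95% interval -1.65 to -0.21, edgeR adjusted p = 0.0754), and it did not pass the test. Without normal glucose 3 the log2 change was -1.22 with an edgeR adjusted p of 0.00167.

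GFPT2, the paralog (chr5:180300698-180353336, minus strand), was barely detected. It had 0, 20 and 16 counts in high glucose 1, 2 and 3, against 48, 217 and 23 counts in normal glucose 1, 2 and 3. These are 0, 0.228 and 0.194 CPM in high glucose and 0.554, 2.53 and 0.277 CPM in normal glucose. The groups did not overlap, but most of the difference in means came from normal glucose 2. A count of 0 in high glucose 1 allows up to 12 counts, or 0.135 CPM, if a fragment is counted about 4 times. The log2 change was -2.99 (SE 1.20, 95% interval -5.81 to -0.16, edgeR adjusted p = 0.127) and -1.55 without normal glucose 2. The log2 ratio of GFPT2 to GFPT1 counts was -11.2 ± 2.97 in high glucose and -8.52 ± 1.19 in normal glucose (SD, n = 3 each), and the groups overlapped (2-sided exact permutation test, p = 0.2). The difference of -2.68 became -0.97 without high glucose 1, the library with no GFPT2 count.

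Of the 3 steps between GFPT1 and UDP-GlcNAc, none passed the test. GNPNAT1, the acetyltransferase of the second step (chr14:52775193-52791668, minus strand), had 27.3, 64.5 and 62.6 CPM in high glucose 1, 2 and 3, against 60.9, 67.1 and 74.4 CPM in normal glucose 1, 2 and 3. High glucose 1 stood far below every other library, and the other 2 high glucose libraries lay within the normal glucose range. The log2 change was -0.39 (95% interval -1.11 to 0.33, edgeR adjusted p = 0.421) and -0.08 without high glucose 1.

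PGM3, the mutase of the third step (chr6:83161150-83193936, minus strand), had 43.8, 46.0 and 43.1 CPM in high glucose 1, 2 and 3, against 54.7, 53.7 and 56.2 CPM in normal glucose 1, 2 and 3. The values were tight in both groups and did not overlap. PGM3 averaged 44.3 ± 1.5 CPM in high glucose and 54.9 ± 1.27 CPM in normal glucose (SD, n = 3 each), a log2 change of -0.31 (SE 0.0969, 95% interval -0.54 to -0.08), with an edgeR adjusted p of 0.0656, and of 0.0475 without normal glucose 3. The GNPNAT1 locus overlaps STYX, and the PGM3 locus overlaps DOP1A and RWDD2A, on the opposite strand. Since no source states that counting used strand, reads in these overlaps cannot be told apart.

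UAP1, the enzyme that makes UDP-GlcNAc (chr1:162561506-162599842, plus strand), had 141, 144 and 147 CPM in high glucose 1, 2 and 3, against 204, 181 and 98.9 CPM in normal glucose 1, 2 and 3. The high glucose libraries lay between normal glucose 3 and the other 2 normal glucose libraries. The log2 change was -0.16 (SE 0.248, 95% interval -0.75 to 0.42, edgeR adjusted p = 0.688). It was -0.42 without normal glucose 3 (edgeR adjusted p = 0.013) and 0.04 without normal glucose 1 (edgeR adjusted p = 0.936), so the direction depended on which normal glucose libraries were included.

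GNPDA1, which converts glucosamine 6-phosphate back to fructose 6-phosphate, had the smallest adjusted p of the 10 genes. The locus (chr5:141991749-142013031, minus strand) had 119, 119 and 130.2 CPM in high glucose 1, 2 and 3, against 219, 214 and 176 CPM in normal glucose 1, 2 and 3. Every high glucose library lay below every normal glucose library. GNPDA1 averaged 123 ± 6.50 CPM in high glucose and 203 ± 23.6 CPM in normal glucose (SD, n = 3 each), a log2 change of -0.73 (SE 0.119, 95% interval -1.01 to -0.45, edgeR adjusted p = 0.00922). Leaving out high glucose 1 or 2 put its edgeR adjusted p at 0.051 or 0.0547. The locus extends past the gene's place in GRCh38.p14 (chr5:142000671-142013027), so part of its count may come from outside that gene. For GNPDA2, the other deaminase of this step, the estimate was 0.02 on the log2 scale (SE 0.142, edgeR adjusted p = 0.954), and it was named after its value was seen.

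NAGK, the salvage kinase (chr2:71064344-71078868, plus strand), had 27.7, 24.8 and 30.1 CPM in high glucose 1, 2 and 3, against 24.0, 25.1 and 25.8 CPM in normal glucose 1, 2 and 3. The groups overlapped, and the log2 change was 0.14 (95% interval -0.15 to 0.43, edgeR adjusted p = 0.467), an interval that leaves out a change of 2-fold in either direction. The log2 ratio of NAGK to GFPT1 counts was -2.46 ± 0.108 in high glucose and -3.44 ± 0.716 in normal glucose (SD, n = 3 each; 2-sided exact permutation test, p = 0.1, the smallest possible). The groups did not overlap on this ratio, although normal glucose 3, at -2.61, lay next to high glucose 3, at -2.57.

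AMDHD2, the deacetylase of N-acetylglucosamine 6-phosphate, could not be measured on its own. Its row (chr16:2475051-2679471, plus strand) also holds TBC1D24, ATP6V0C and PDPK1 and 1 clone name. The locus had 322, 323 and 268 CPM in high glucose 1, 2 and 3, against 365, 331 and 382 CPM in normal glucose 1, 2 and 3, with a log2 change of -0.24 (95% interval -0.52 to 0.04, edgeR adjusted p = 0.197). A separate assembled locus inside the AMDHD2 gene (chr16:2523434-2526622, plus strand), named AMDHD2 but with no annotated transcript, fell in high glucose. It had 2.40, 1.63 and 2.62 CPM in high glucose 1, 2 and 3, against 8.87, 10.9 and 6.43 CPM in normal glucose 1, 2 and 3, a log2 change of -1.98 (SE 0.280, edgeR adjusted p = 0.00636). The rule leaves this locus out, and it was chosen after its values were seen. Whether its reads belong to AMDHD2 transcripts was not tested.

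**Figure D3:**
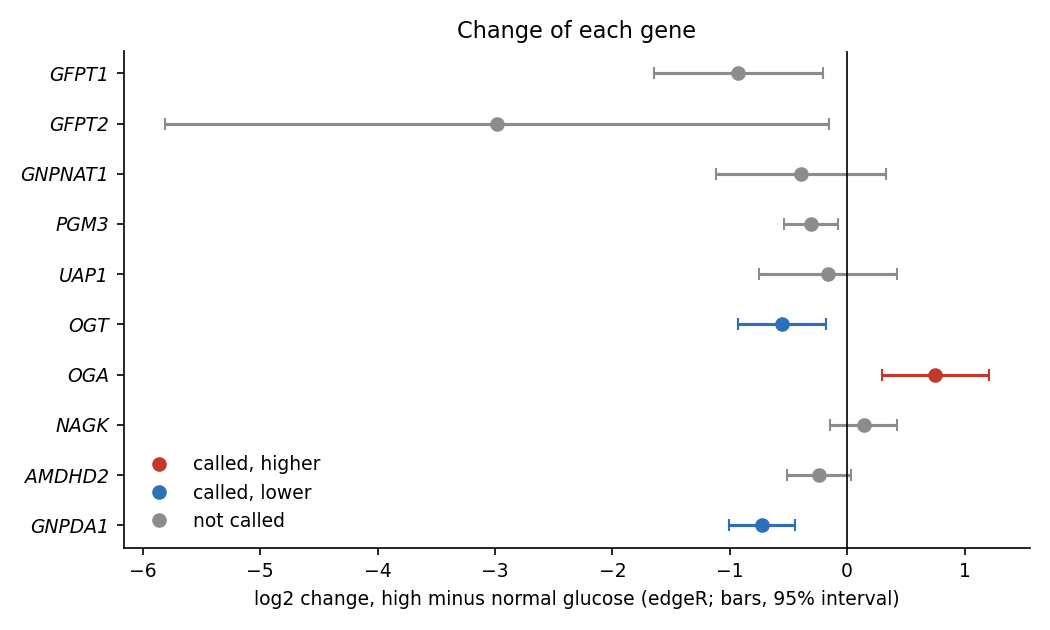
Log2 change of each gene, high minus normal glucose (x axis), with the 95% interval of the edgeR estimate as bars; red and blue mark genes called higher and lower, grey those not called. OGA lies above 0 at 0.75, OGT and GNPDA1 lie below at -0.56 and -0.73, and the widest interval belongs to GFPT2.

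Levels were compared between the genes only per length. In high glucose the order ran from UAP1 (34.6 ± 0.532 FPKM) through GNPDA1 (25.5 ± 1.25), OGT (20.2 ± 2.67), GFPT1 (14.2 ± 2.06) and OGA (12.1 ± 0.197) to GNPNAT1 (10.3 ± 4.15), PGM3 (4.88 ± 0.158) and NAGK (2.54 ± 0.246), with GFPT2 last at 0.0236 ± 0.0206 FPKM (SD, n = 3 each). OGA and GNPNAT1 overlapped in that order, and the other neighbours named here did not. In normal glucose GNPDA1 came first (41.1 ± 4.94 FPKM), followed by UAP1 (37.7 ± 13.0), OGT (28.8 ± 4.61), GFPT1 (26.2 ± 10.4) and GNPNAT1 (13.2 ± 1.27), each overlapping the next. OGA stood lower there, at 6.98 ± 1.89 FPKM, and overlapped PGM3 at 5.88 ± 0.111 FPKM. NAGK, at 2.24 ± 0.0716 FPKM, and GFPT2, at 0.187 ± 0.205 FPKM, came last and overlapped no neighbour. The FPKM of the AMDHD2 row belongs to 5 names and was left out of the order.

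Normal glucose 3, where GFPT1 and UAP1 were low, also had the lowest summed level of ER stress transcripts among the normal glucose libraries. All 10 tested genes of the ER stress and integrated stress response list fell in high glucose, beside 9.86% of all tested loci. Their median log2 change was -2.35, beside -0.0042 over all tested loci. This list, too, was chosen with earlier results of these data known. The number that fell was 10 without normal glucose 3, 7 and 8 without normal glucose 1 and 2, and 4, 3 and 3 without high glucose 1, 2 and 3. The share of all loci that fell was 13.9% without normal glucose 3, 5.33% and 4.89% without normal glucose 1 and 2, and 3.09%, 2.62% and 2.73% without high glucose 1, 2 and 3. Their summed level was 952, 912 and 977 CPM in high glucose 1, 2 and 3, against 9979, 10160 and 2352 CPM in normal glucose 1, 2 and 3. XBP1, the transcription factor whose spliced form is known to drive GFPT1 in the mouse heart, had 83.0, 45.8 and 47.7 CPM in high glucose 1, 2 and 3 and 252, 269 and 107 CPM in normal glucose 1, 2 and 3. DDIT3, a stress-induced transcription factor, had 12.6, 13.2 and 7.20 CPM in high glucose 1, 2 and 3 and 266, 366 and 33.0 CPM in normal glucose 1, 2 and 3. HSPA5, the ER chaperone BiP, had 573, 600 and 617 CPM in high glucose 1, 2 and 3 and 7847, 8046 and 1623 CPM in normal glucose 1, 2 and 3. In all 3 genes normal glucose 3 lay between the high glucose libraries and the other normal glucose libraries. The calls of HSPA5 and DDIT3 were lost without any 1 of the high glucose libraries (edgeR adjusted p of 0.0523 to 0.0549 and 0.0624 to 0.0687). XBP1 lost its call without high glucose 2 or 3 or normal glucose 1 or 2 (0.0852, 0.0851, 0.0645 and 0.0627). The smallest adjusted p values of the list belonged to ASNS, asparagine synthetase, in a locus of 6 names (log2 change -1.97, SE 0.228, edgeR adjusted p = 0.00365), to ATF4, the central transcription factor of the integrated stress response (-1.09, SE 0.151, edgeR adjusted p = 0.0061), and to TRIB3, a pseudokinase induced by stress (-3.50, SE 0.532, edgeR adjusted p = 0.00766). These 3 were called without each single library. GNPDA1, like HSPA5, DDIT3 and XBP1, was highest in normal glucose 1 and 2. Unlike theirs, its level in normal glucose 3 (176 CPM) lay nearer to normal glucose 1 and 2 (219 and 214 CPM) than to high glucose. OGT, GNPNAT1, PGM3 and the AMDHD2 row were highest in normal glucose 3, and OGA and NAGK in a high glucose library. HSPA5, XBP1 and DDIT3 were chosen for this comparison after their values were seen. The part of ER stress in the levels of GFPT1, UAP1 and GNPDA1 was not tested.

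**Figure D4:**
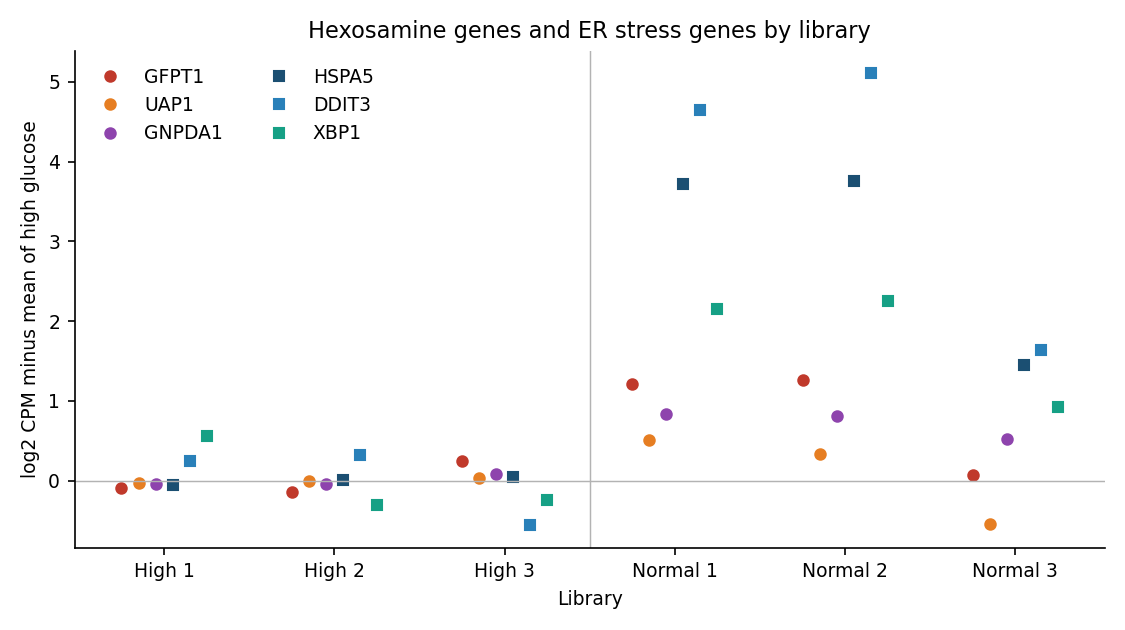
Level of 3 hexosamine genes (circles) and 3 ER stress genes (squares) in each library as log2 CPM minus the gene's mean over high glucose (y axis; x axis, library, high glucose left). GFPT1 and the ER stress genes HSPA5, DDIT3 and XBP1 are highest in normal glucose 1 and 2, and normal glucose 3 lies nearer to the high glucose libraries.

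Genes around the pathway were taken as lists chosen with earlier results of these data known, and they changed in both directions. Of 11 amino sugar salvage and sialic acid genes, 2 rose and 2 fell, with a median log2 change of -0.29, and without normal glucose 3, 2 rose and 5 fell. For this and the lists that follow, counts without normal glucose 3 stand beside 28.7% of all loci called at that setting, against 19.6% with every library. UAP1L1, a UAP1 paralog, had 18.0, 15.5 and 19.9 CPM in high glucose 1, 2 and 3, against 60.2, 71.0 and 43.4 CPM in normal glucose 1, 2 and 3, and fell by 1.71 on the log2 scale (SE 0.203, edgeR adjusted p = 0.00396). CMAS, which activates sialic acid with CMP, rose by 0.52 (SE 0.111, edgeR adjusted p = 0.0202), and NANP, the phosphatase before it, fell by 0.64 (SE 0.159, edgeR adjusted p = 0.0324). CMAS lost its call without high glucose 1, 2 or 3 or normal glucose 1 (edgeR adjusted p of 0.0725, 0.0897, 0.0871 and 0.0587). NANP lost it without any single library except normal glucose 3 (edgeR adjusted p of 0.0705 to 0.126). NANS, the sialic acid synthase and the other gene that rose, was named after its value was seen; its log2 change was 0.35 (edgeR adjusted p = 0.0467). NANS lost its call without any single library except normal glucose 3 (edgeR adjusted p of 0.0803 to 0.163).

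Of 20 tested UDP-GlcNAc transporters and transferases, 2 rose and 4 fell, with a median log2 change of 0.01, and without normal glucose 3, 6 of 21 rose and 5 fell, at the setting where 28.7% of all loci were called. DPAGT1, which spends UDP-GlcNAc on the first step of the N-glycan precursor, had 25.3, 28.6 and 29.6 CPM in high glucose 1, 2 and 3, against 41.4, 45.3 and 44.9 CPM in normal glucose 1, 2 and 3, and fell by 0.66 on the log2 scale (SE 0.116, edgeR adjusted p = 0.0116). MGAT4B, which branches N-glycans, rose by 0.56 (SE 0.101, edgeR adjusted p = 0.0126). SLC35D1, a nucleotide sugar transporter of the ER, rose by 1.03 (SE 0.196, edgeR adjusted p = 0.0145). MGAT4A, a paralog of MGAT4B named after its value was seen, fell by 0.62 (edgeR adjusted p = 0.019). DPAGT1 lost its call without high glucose 1 or 2 (edgeR adjusted p of 0.0600 and 0.0572), and MGAT4B and SLC35D1 without any 1 of the high glucose libraries (0.0521 to 0.0638 and 0.0534 to 0.0621). MGAT4A lost its call without high glucose 1, 2 or 3 or normal glucose 2 (0.0584, 0.0931, 0.0871 and 0.0518).

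Of 9 OGT partners and known O-GlcNAc substrates, 1 fell, with a median log2 change of -0.07, and without normal glucose 3, 1 rose and 2 fell beside the same 28.7%. The gene that fell was TRAK2, a mitochondrial motor adaptor that binds OGT, with 245, 255 and 246 CPM in high glucose 1, 2 and 3 and 338, 363 and 425 CPM in normal glucose 1, 2 and 3 (log2 change -0.59, SE 0.115, edgeR adjusted p = 0.0152). TRAK2 lost its call when high glucose 1, 2 or 3 was left out (edgeR adjusted p of 0.0728, 0.0692 and 0.0744). For HCFC1, the nuclear cofactor that OGT cleaves, the estimate was -0.32 on the log2 scale (edgeR adjusted p = 0.0675), and it was named after its value was seen.

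Of 15 genes of substrate supply, 3 rose and 2 fell, with a median log2 change of -0.06, and without normal glucose 3, 7 rose and 2 fell, beside 14.8% and 13.9% of all loci. SLC38A1, an importer of glutamine, had 211, 215 and 223 CPM in high glucose 1, 2 and 3, against 899, 957 and 812 CPM in normal glucose 1, 2 and 3. The groups were far apart, with a log2 change of -2.04 (SE 0.106, edgeR adjusted p = 4.98e-04). GLUL, glutamine synthetase and the other gene that fell, was named after its value was seen; it fell by 0.85 on the log2 scale (edgeR adjusted p = 0.0444) and lost its call when any 1 library was left out (edgeR adjusted p of 0.0632 to 0.102). The 3 genes that rose with every library included act on fructose 6-phosphate, the sugar that GFPT1 shares with glycolysis. PFKL, which draws it into glycolysis, rose by 1.07 (SE 0.129, edgeR adjusted p = 0.00406), PFKP by 0.68 in a locus shared with PITRM1-AS1 (SE 0.107, edgeR adjusted p = 0.00838), and GPI, which makes it and was named after its value was seen, by 0.64 in a locus shared with PDCD2L (edgeR adjusted p = 0.0235). GPI lost its call without high glucose 1, 2 or 3 or normal glucose 1 (edgeR adjusted p of 0.0868, 0.0772, 0.0854 and 0.0696). PFKM, a paralog of PFKL and PFKP named after its value was seen, was not called (log2 change -0.06, edgeR adjusted p = 0.804).

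**Figure D5:**
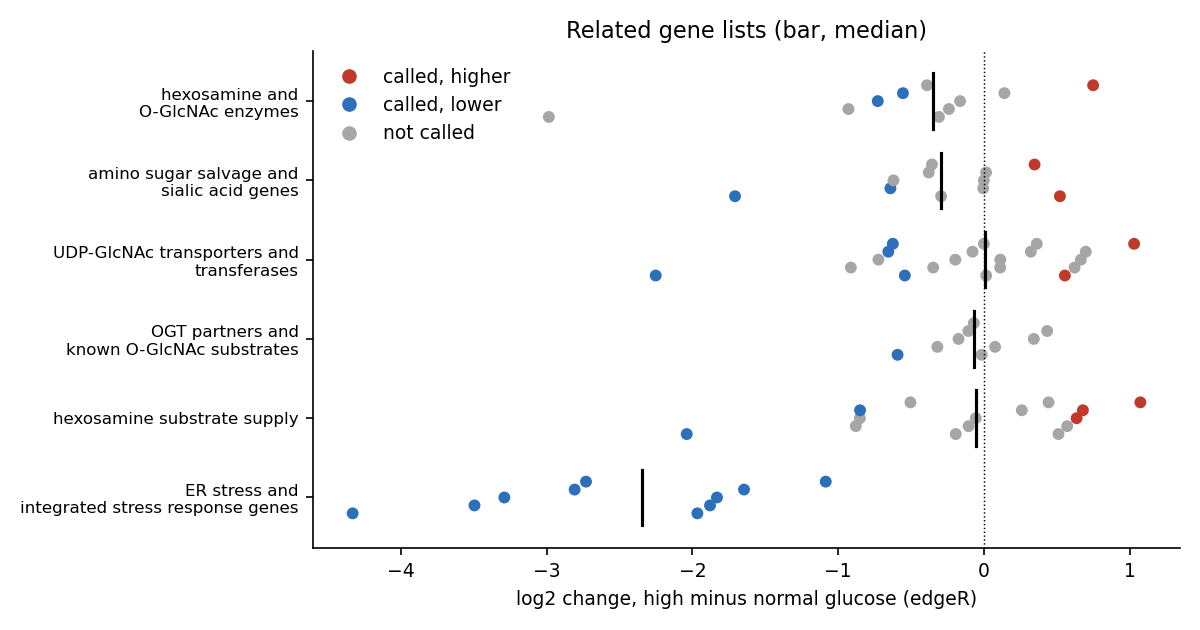
Log2 change, high minus normal glucose (x axis), of each tested gene in 6 lists, 1 point per gene, with red and blue for called higher and lower, grey for not called and a black bar for the list's median. The 10 ER stress genes all lie below 0, while the other lists spread on both sides, with medians of -0.35 to 0.01.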

How the data were processed

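Per the labels' protocols, RNA was isolated with Trizol and taken through poly(A) selection, but the same text mentions a poly(A)-negative fraction and adipose samples, so the selection is unclear. The deposited table holds raw counts per locus, whole numbers with no normalization per the file headers and values. It also holds FPKM values that the authors scaled to length and depth, listed at 0.0001 where the count is 0. Bowtie 0.12.2 and mm8, a mouse build, appear in the submitters' processing notes, although the table's identifiers are human. How reads were counted, and whether by strand, is not stated. Counts of 4 were more frequent (9555) than counts of 3 (4210) or 5 (2659), so a fragment may have been counted about 4 times, and the floor was set at 12 counts. Floors and intervals cover counting error only or the spread between libraries.

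Loci were filtered with filterByExpr, which kept 25025, scaled by TMM and tested with edgeR 4.0.16 (quasi-likelihood test, 2-sided, with no term but glucose) under R 4.3.3. SE is the size of the estimate over the square root of its F statistic. The fit was also run on simulated data. Alternatives were DESeq2 1.42.0, limma 3.58.1 (voom with group weights, and log2 FPKM with pseudocounts of 1 and 0.1 at loci of at least 0.5 FPKM in 3 libraries), other scalings, no filter, counts divided by 4, a replicate block and the omission of each library. The genes and lists were chosen with earlier results of these data known. Named from each list were up to 3 called genes with the smallest adjusted p, and others are marked.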

Additional observations from a re-analysis of the deposited data

How the results depend on the processing

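The directions of 9 of the 10 genes held under the 15 alternatives that gave a value for them, and UAP1 turned to 0.041 without normal glucose 1, against -0.418 without normal glucose 3. GNPDA1 kept its call under 13 of 15 alternatives (edgeR, limma or DESeq2 adjusted p of 1.44e-05 to 0.0547), OGA under 10 (0.00637 to 0.112) and OGT under 6 (0.0192 to 0.1725). The number of the 10 genes that fell was 5 with DESeq2, and 1 with limma on FPKM at either pseudocount, with no filter and with the replicate block. Among all loci, DESeq2 called 7050 in either direction, beside 4906 in the main fit. Limma on FPKM called 4595 (pseudocount 0.1) and 4718 (pseudocount 1), and the fit with no filter 4313. When 1 library was left out, 0 to 4 of the 10 genes fell, beside 2.62% to 13.9% of all loci. The number that rose was then 0 to 1, beside 2.77% to 14.8%. With the replicate block no gene rose by edgeR (OGA adjusted p = 0.0539), 2545 loci were called, and 11 genes of the other lists fell. Same-numbered libraries did not deviate together (correlations of -0.017, -0.00076 and -0.0094), and no library correlated best with its own number. Taken on deviations from means of 3 libraries, these correlations cannot decide whether same-numbered libraries shared a culture or day. The number of called loci was 4906, and 1421 to 7615 when 1 library was left out. Of 65 tested genes in the 5 other lists, 7 rose and 19 fell, beside 9.75% and 9.86% of all tested loci. The ER stress list held 10 of the 19. Over the 5 lists, the number that rose was 11 with DESeq2 and 12 with limma on FPKM at either pseudocount. Those settings called 7050, 4595 and 4718 of all loci in either direction. With 1 library left out, 2 to 16 rose and 5 to 24 fell, beside 2.77% to 14.8% and 2.62% to 13.9% of all loci. An omission leaves fewer libraries for the test, so a lost call does not by itself show dependence on that library. The ratios kept their direction: OGT to OGA at -1.65 to -1.01, NAGK to GFPT1 at 0.77 to 1.40 and GFPT2 to GFPT1 at -3.80 (FPKM) to -0.97, the last with no value without an offset. GFPT2 had no value with counts divided by 4 or on FPKM. DESeq2 scaling moved the median of all loci by -0.0073. The cause of these changes was not tested.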

Other observations

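The genes whose pattern over the 6 libraries was most like that of OGA, the 1 gene of the pathway that rose, were LINC00884, ANKRD1, SH3BP5L, GTF2IP13 and ATP8B4. Likeness was the root mean square difference in log2 CPM (pseudocount 0.5), centred on each locus's own mean, over 12365 loci with 1 gene symbol and a mean of at least 1 CPM, and it was 0.0508 to 0.0745 for these 5. ANKRD1, a mechanosensitive transcript of the YAP pathway, had 321, 345 and 338 CPM in high glucose 1, 2 and 3, against 241, 220 and 149 CPM in normal glucose 1, 2 and 3. Like OGA, it was lowest in normal glucose 3, but it was picked for its likeness over these same libraries, so this is a description.

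The genes most like GNPDA1, the gene that fell with the smallest adjusted p, were PCGF5, MED13L, TRAM1, CCNI and USP24, at 0.0389 to 0.0445. TRAM1, a translocon-associated protein of the ER, had 377, 398 and 400 CPM in high glucose 1, 2 and 3, against 682, 709 and 559 CPM in normal glucose 1, 2 and 3. Each of these 5, like GNPDA1, was lower in every high glucose library than in any normal glucose library. The 5 were picked for that likeness, so their order is a description. A second assembled locus named GNPDA1, with no annotated transcript, had 20, 38 and 12 counts in high glucose 1, 2 and 3 and 17, 14 and 8 in normal glucose 1, 2 and 3, and was not called (edgeR adjusted p = 0.423).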
